A study of Gallus gallus with 66 samples.

Results

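The change from 12 h to 120 h in oleate was followed in preadipocytes of a lean chicken line, with 3 arrays at 12 h and 3 arrays at 120 h, 6 of the 66 arrays of the series. The arrays were chosen by their labels alone, as the lean line groups treated with oleate and collected at those hours, and each difference is the mean at 120 h minus the mean at 12 h. The series profiled preadipocytes of a lean and a fat line on Affymetrix chicken arrays, in 22 groups of 3 arrays. For each line the abdominal fat of 15 male birds aged 10 days was pooled and digested with collagenase, floating adipocytes were removed by centrifugation, and red blood cells were lysed. The cells were passaged once, and the point of 95% confluence was called 0 h. From 0 h, cultures received 160 µg/ml oleate or were kept in normal medium as the control, and both were collected after 12, 24, 72 and 120 h. The groups used here are lean oleate at 12 h and 120 h, lean oleate at 24 h and 72 h, lean control at 12 h and 120 h, and fat oleate at 12 h and 120 h, each with 3 arrays; the 3 lean arrays at 0 h give the starting level. The labels describe pooled birds of each line and name the 3 arrays of a group biological replicates, but do not tell whether pools, dishes or days were separate. The p-values measure the spread between arrays within groups, pooled over all 66 arrays rather than the 6 compared, and this spread may be technical.

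Oleate is the salt of a monounsaturated fatty acid that cells take up and store in lipid droplets as triglyceride, and chicken preadipocytes are commonly driven towards fat storage with it. Cholesterol synthesis and much of fatty acid synthesis are switched on by the SREBP transcription factors, which are held in the endoplasmic reticulum by INSIG proteins when sterols are plentiful, so that the genes of the pathway usually move together. Inflammatory cytokines and chemokines are induced through NF-kB, and antiviral genes through interferons and the IRF factors, in stromal cells as well as in immune cells.

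The deposited values lie on a log scale whose base was inferred from their range and taken as 2, so that a difference of 1 is a 2-fold change. Vimentin (VIM) read 12.90 to 13.15 on the 6 arrays, PRRX1 10.64 to 11.33, THY1 8.76 to 9.38 and PDGFRB 7.65 to 8.30, against an array median of 4.17. PDGFRA, another stromal marker, was near that median, at 4.63 to 5.02 at 12 h and 3.69 to 4.71 at 120 h. Markers of mature fat cells differed among themselves. PLIN1, the perilipin of adipocyte lipid droplets, and CEBPA lay below the array median on all 6 arrays and ADIPOQ lay above it on 1 of them, while PPARG (6.73 to 7.69), FABP4 (8.01 to 11.69), CD36 (4.91 to 8.52) and LPL (5.44 to 7.11) lay above it on all 6. Arrays of the 12 h group correlated with each other at r of 0.971 to 0.974 over probe sets, arrays of the 120 h group at 0.942 to 0.967, and arrays of different groups at 0.927 to 0.963. None of the 36 poly-A or 27 hybridization spike-in probe sets passed the test between 12 h and 120 h, with median differences of 0.16 and 0.19. The gap between 3' and 5' actin probe sets, a sign of RNA integrity, averaged 0.498 at 12 h and 0.396 at 120 h, and that of GAPDH −0.002 and −0.008.

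Between 12 h and 120 h, 1297 of 22060 tested probe sets (5.88%) differed at an adjusted p under 0.05 (limma moderated test, Benjamini-Hochberg). Of these 589 (2.67%) were higher and 708 (3.21%) lower at 120 h, and 234 (1.06%) and 314 (1.42%) of all tested were called and differed at least 2-fold. Counted by gene, 771 of 10176 genes (7.58%) were called, 357 (3.51%) higher and 414 (4.07%) lower, around a median difference of −0.01 over all genes tested. The 3 arrays at one hour did not overlap the 3 at the other for 5168 probe sets (23.4%). Lean oleate arrays with the same replicate number deviated together, with correlations of 0.182, 0.193 and 0.169 between the 2 hours. A fit with the replicate number as a block called 2365 probe sets, 1083 higher and 1282 lower. By gene the block called 1383 of 10176, 649 higher and 734 lower. Counts with the replicate block in the lists below stand against these numbers. A fit of the 6 arrays alone, without the spread of the other groups, called 305 probe sets, 156 higher and 149 lower. The count of 1297 was 614 without replicate 2 at 12 h, 443 without replicate 3 at 12 h, 364 without replicate 3 at 120 h and 1932 without replicate 2 at 120 h. Among the genes picked by the naming rule given with the processing, 107 were called. Of these, 19, 44 and 55 lost the call without replicates 1, 2 and 3 at 12 h, and 36, 7 and 71 without replicates 1, 2 and 3 at 120 h. Called genes named below beyond that rule are not in these counts. In cultures measured in bulk, fewer cells of a type and less RNA per cell cannot be told apart.

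Among genes that passed the test and whose 2 hours did not overlap, the largest rise was that of CCL20. The chemokine CCL20, which draws lymphocytes and dendritic cells, read 6.05, 4.98 and 5.33 at 12 h and 10.92, 7.54 and 12.07 at 120 h, a difference of 4.72 ± 1.00 (SE, adjusted p = 0.00304). The chemokine IL8L1, a chicken relative of interleukin 8, read 9.43, 6.81 and 6.42 at 12 h and 12.52, 10.78 and 13.09 at 120 h, a difference of 4.57 ± 1.11 (adjusted p = 0.00825). In both genes every array at 120 h lay above every array at 12 h, as the choice of genes required. In both, replicate 2 was the lowest at 120 h, and replicate 1 was the highest at 12 h. The cytokine IL1B followed the same order at 120 h, with 10.95, 9.01 and 11.10 against 7.93, 6.49 and 5.36 at 12 h (3.76 ± 1.03, adjusted p = 0.0213). CMBL, a hydrolase of the liver and gut, read 7.85, 6.79 and 6.46 at 12 h and 11.75, 11.07 and 11.85 at 120 h, a difference of 4.53 ± 0.78 (adjusted p = 0.000452). The 3 arrays at 120 h lay closer together than in the cytokines, and the call held in each alternative setting tried.

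Other large rises among called genes were in STEAP4, a metalloreductase of adipose tissue (3.14 ± 0.75, adjusted p = 0.00714), in VNN2, a pantetheinase of the vanin family (3.00 ± 0.82, adjusted p = 0.0205), and in SLC13A5, a plasma membrane citrate carrier (4.05 ± 1.24, adjusted p = 0.0403). STEAP4 read 5.62, 5.06 and 3.90 at 12 h and 8.19, 7.90 and 7.91 at 120 h. The other SLC13A5 probe sets (3.49 and 1.99) did not pass the limma test (adjusted p = 0.0892 and 0.198). The call of SLC13A5 was lost in 8 of 17 alternatives. PAPPA, the protease that frees insulin-like growth factors from their binding proteins, rose from 2.05, 2.35 and 2.57 to 6.24, 5.60 and 5.04 (3.30 ± 0.79, adjusted p = 0.00683). The 12 h readings of PAPPA lay below the array median of 4.17 and all 3 at 120 h above it. The remaining genes among the 12 largest rises were the trace amine receptor TAAR1 (4.46), the interferon-induced SAMD9L (3.99), EXOC3L (3.60) and the secreted peptide PROK2 (3.23). TAAR1 had 1 array at 12 h, and SAMD9L 1 array at 12 h, at the floor of 1.613 set on low values, and the call of SAMD9L was lost without that floor (adjusted p = 0.164).

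**Figure D1:**
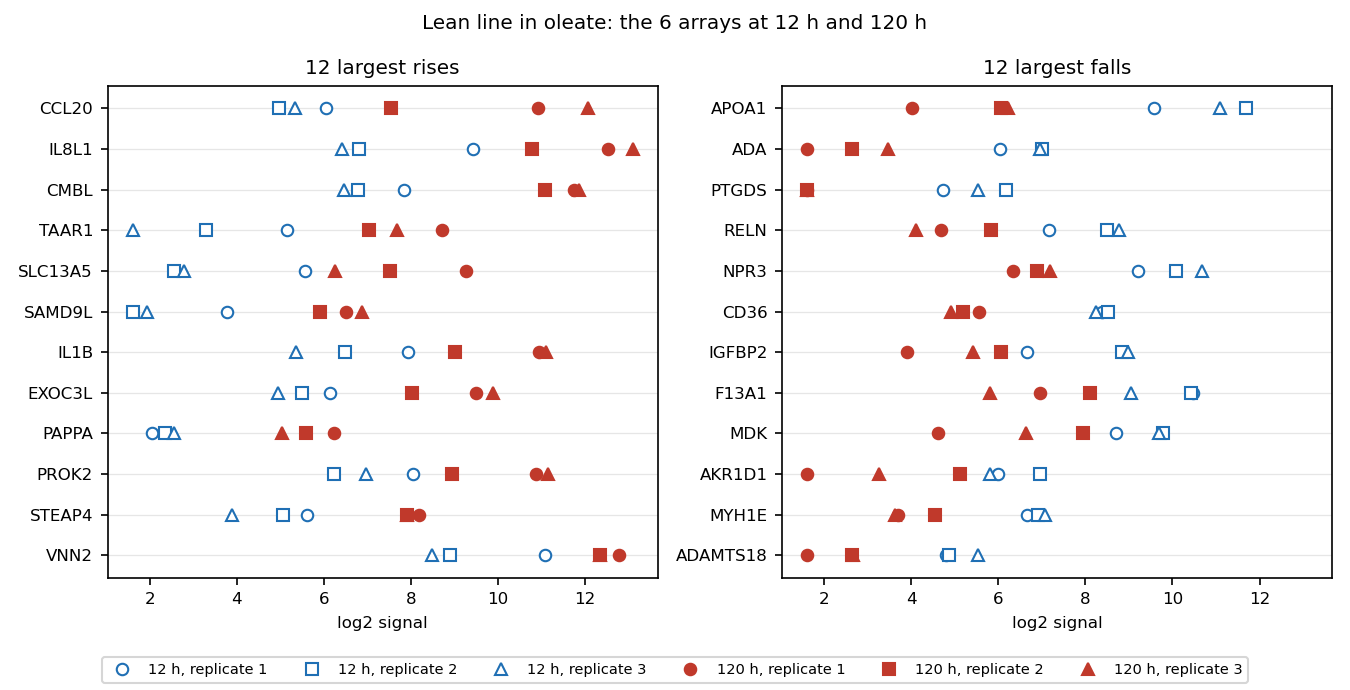
Log2 signal (x axis) of the 12 genes with the largest called rises and the 12 with the largest called falls in the lean line in oleate, one row per gene, with open symbols for the 3 arrays at 12 h and filled symbols for the 3 at 120 h. The 2 hours do not overlap in any row, as the choice of genes required; PTGDS lies at the floor of 1.61 on all 3 arrays at 120 h.

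The falls of largest size among called genes began with APOA1 and ADA. APOA1, the main protein of high-density lipoprotein, read 9.57, 11.68 and 11.09 at 12 h and 4.02, 6.06 and 6.23 at 120 h, a difference of −5.35 ± 0.90 (adjusted p = 0.000304). Its mean was 11.37 at 0 h, 10.36 at 24 h and 7.91 at 72 h, so that each later hour read lower than the one before. NPR3, the clearance receptor for natriuretic peptides, fell from 9.20, 10.09 and 10.69 to 6.33, 6.89 and 7.19 (−3.19 ± 0.49, adjusted p = 6.27e-05). Adenosine deaminase (ADA) fell from 6.04, 7.01 and 6.96 to 1.61, 2.65 and 3.46 (−4.10 ± 0.62, adjusted p = 6.27e-05). All 3 readings of ADA at 120 h lay under the array median of 4.17, and replicate 1, here and in AKR1D1 and ADAMTS18 below, was at the floor. PTGDS, the lipocalin-type prostaglandin D synthase, read 4.74, 6.17 and 5.54 at 12 h and was at the floor on all 3 arrays at 120 h, so the fitted difference of −3.87 ± 0.70 depends on the floor and was −5.04 without it.

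CD36, the fatty acid translocase, read 8.38, 8.52 and 8.25 at 12 h and 5.57, 5.19 and 4.91 at 120 h, a difference of −3.16 ± 0.74 (adjusted p = 0.0066). The 12 h readings of CD36 stood above the mean of 7.64 at 0 h, and the means at 24 h and 72 h were 7.83 and 6.40. The secreted glycoprotein RELN fell by 3.26 and the growth factor midkine (MDK) by 3.00 on the log2 scale, each with groups that did not overlap. The other genes among the 12 largest falls were IGFBP2, which binds insulin-like growth factors (−3.02), the coagulation factor subunit F13A1 (−3.02), the steroid reductase AKR1D1 (−2.92), the myosin MYH1E (−2.92) and the protease ADAMTS18 (−2.75). Another MYH1E probe set, of lower level, differed by −1.64 and did not pass the limma test (adjusted p = 0.0529). Each of these 24 largest rises and falls had the same sign in the 72 h minus 24 h difference of the other lean oleate arrays, in lean control and in fat oleate. Over all tested probe sets each sign made up 48.6% to 51.3% in these comparisons. Of the 12 rises 5 were called in lean control and 4 in fat oleate, and of the 12 falls 7 and 6. Over all genes 3.82% were called higher and 3.31% lower in lean control, and 1.59% and 1.66% in fat oleate. None of the 24 was called in the tests of the difference from either.

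Macrophage and myeloid markers were mostly lower at 120 h as well, with 18 of 23 differences below 0. The mean level of the 23 tested genes of that list was 7.29, 6.97 and 6.09 at 12 h and 6.07, 6.40 and 5.26 at 120 h, and it was 5.98, 5.57 and 5.04 in lean control at 12 h. The complement genes C1QA, C1QB and C1QC read 6.98 to 9.94 at 12 h and 5.10 to 8.01 at 120 h, with differences of −1.98, −2.59 and −2.14 that did not pass the test (adjusted p = 0.142, 0.104 and 0.127). They stayed above the array median of 4.17 on all 6 arrays, and replicate 3 was the lowest at both hours. The hours overlapped in C1QA and C1QB but not in C1QC. The markers CTSS, CD74, MARCO and CSF1R changed less and overlapped between the hours too. CTSS differed by −0.34 (adjusted p = 0.706), CD74 by −0.46 (0.485), MARCO by −0.97 (0.503) and CSF1R by −1.40 (0.383). PTPRC, the leukocyte common antigen CD45, was the only member called, from 8.30, 7.95 and 7.62 to 6.35, 6.66 and 6.50 (−1.45 ± 0.35, adjusted p = 0.00705). A second PTPRC probe set of lower level had a difference of −0.57 and did not pass the limma test (adjusted p = 0.421). The 1 call of 23 stands against 4.07% of all genes called lower. With the replicate block 5 members were called lower, where it called 734 of all 10176 genes lower. The list's median was −0.72 in lean oleate, 0 in lean control, where 2 members, CD83 and CTSS, were called higher (3.82% of all genes were), and −0.68 in fat oleate. CD36 and F13A1, among the falls above, are also expressed by macrophages, and the part of these cells in the falls was not tested.

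Most genes of cholesterol synthesis and uptake fell. Of the 20 tested, 14 were called lower and none higher, against 4.07% and 3.51% of all genes. All 20 lay below 0, as did 5277 of all 10176 genes, and the median difference was −1.10. NSDHL, a dehydrogenase late in the pathway, read 10.48, 10.44 and 10.88 at 12 h and 9.41, 9.39 and 7.98 at 120 h (−1.67 ± 0.30, adjusted p = 0.00066). INSIG1, the sterol-responsive retention protein of SREBP, read 11.34, 10.96 and 11.60 at 12 h and 10.41, 10.45 and 9.49 at 120 h (−1.18 ± 0.23, adjusted p = 0.00107). In both genes replicate 3 was the highest array at 12 h and the lowest at 120 h. Mevalonate kinase (MVK) read 8.36, 8.24 and 8.88 at 12 h and 6.89, 7.75 and 6.79 at 120 h (−1.35 ± 0.24, adjusted p = 0.000489). A second MVK probe set of lower level had a difference of −0.05 (adjusted p = 0.945). ACAT2, the acetoacetyl-CoA thiolase at the head of the pathway, moved less but tightly, from 11.37, 11.23 and 11.24 to 10.78, 10.61 and 10.53 (−0.64 ± 0.12, adjusted p = 0.00101).

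Mevalonate diphosphate decarboxylase (MVD) read 6.71, 6.29 and 7.08 at 12 h and 5.46, 5.57 and 5.35 at 120 h (−1.24 ± 0.38, adjusted p = 0.0408). The other called members, named here to complete the list, were FDPS (−1.71), DHCR7 (−1.37), LSS (−1.35), STARD4 (−1.33), SC5D (−1.16), FDFT1 (−1.11), HSD17B7 (−0.97), SQLE (−0.94) and MSMO1 (−0.56). They run from the isoprenoid steps (FDPS) through squalene (FDFT1, SQLE) and lanosterol formation (LSS) to the last reductions (DHCR7), with STARD4 a carrier of sterol between membranes. The 6 members that missed the threshold were SREBF2 (−0.41), HMGCS1 (−0.55), PMVK (−0.52), CYP51A1 (−1.09), INSIG2 (−0.33) and SCAP (−0.19), and both SREBF2, the pathway's transcription factor, and SCAP, its escort protein, were among the smallest differences. All 14 called members had groups that did not overlap, against 23.4% of all probe sets, and the calls rest on the same values. The count of 14 was the same with the replicate block, and was 7 without replicate 3 at 12 h, 7 without replicate 3 at 120 h and 2 in the alternative with the fewest calls, a fit of the 6 arrays alone.

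The mean level of the cholesterol list was highest at 12 h and lower at each later hour. It was 8.85, 9.11 and 9.17 on the 3 arrays at 0 h and 9.53, 9.36 and 9.78 at 12 h in oleate, so all 3 arrays at 12 h were above all 3 at 0 h. It was 8.94, 8.97 and 9.38 at 24 h, 8.76, 8.78 and 8.86 at 72 h, and 8.65, 8.83 and 8.25 at 120 h. In lean control the list read 8.72, 8.85 and 8.91 at 12 h and 9.02, 8.93 and 9.19 at 120 h. The oleate arrays were thus above the control arrays at 12 h and below them at 120 h, with no overlap at either hour. The array names in the labels are written in one style for lean oleate and in another for lean control, so levels of the 2 treatments are also levels of 2 name styles, whereas each change with time lies within 1 style.

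**Figure D2:**
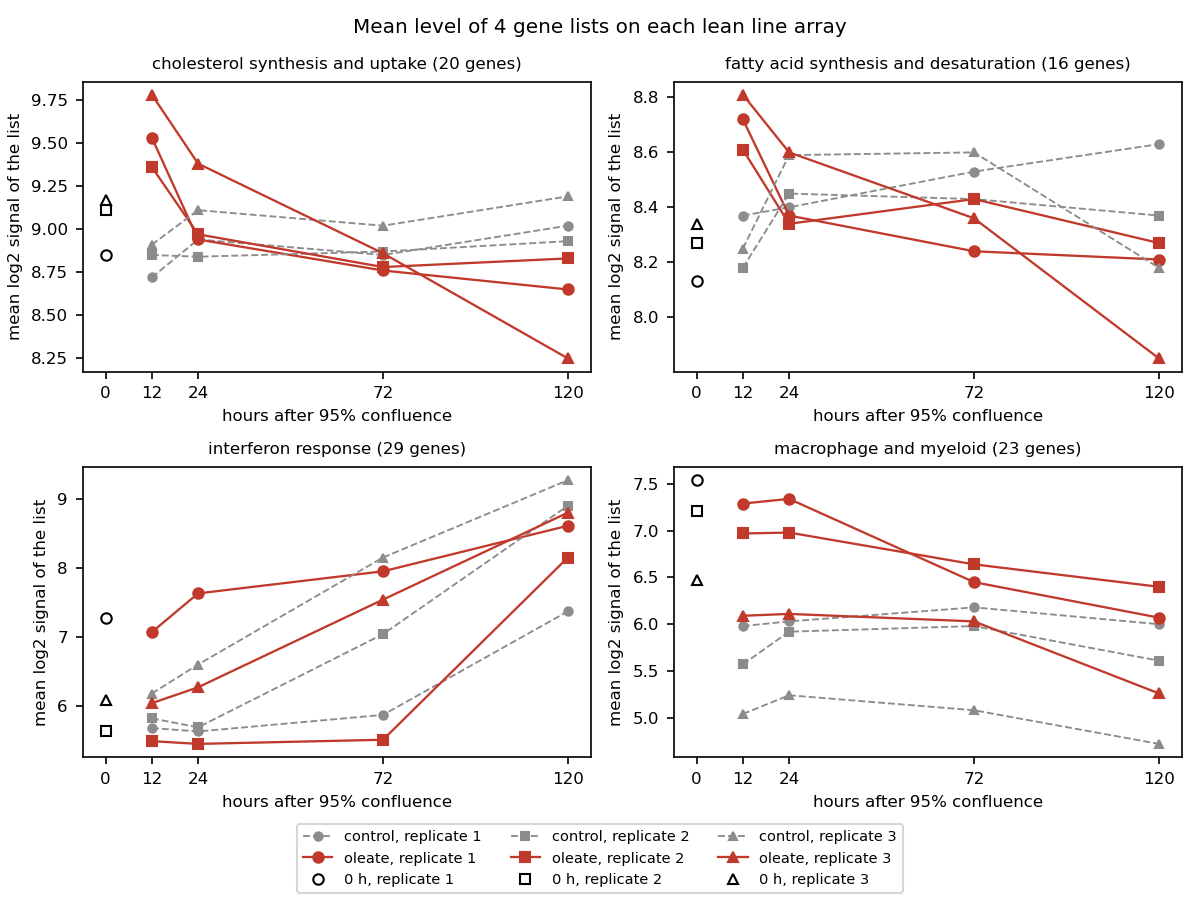
Mean log2 signal (y axis) of 4 gene lists on each lean line array against hours after 95% confluence, with red lines for the oleate arrays, grey dashed lines for the control arrays and open symbols for the arrays at 0 h, and one symbol shape per replicate number. The cholesterol list falls from 9.36 to 9.78 at 12 h to 8.25 to 8.83 at 120 h in oleate, and the interferon list is higher at 120 h in all 3 replicates, from 7.07 at 12 h in replicate 1 and from 5.49 and 6.04 in the others.

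Genes of fatty acid synthesis and desaturation gave fewer calls. Of the 16 tested, 6 were called lower and none higher, against 4.07% and 3.51% of all genes, with a median of −0.53. ELOVL6, which lengthens the saturated and monounsaturated acids of lipogenesis, read 9.05, 8.81 and 9.49 at 12 h and 7.41, 8.10 and 6.60 at 120 h (−1.75 ± 0.34, adjusted p = 0.00109). ATP citrate lyase (ACLY), which makes cytosolic acetyl-CoA, read 11.28, 11.10 and 11.58 at 12 h and 10.26, 10.68 and 9.40 at 120 h (−1.21 ± 0.25, adjusted p = 0.00198). Replicate 3 was again the highest array at 12 h and the lowest at 120 h in both genes. The desaturase FADS2 fell by 0.88 ± 0.22 on the log2 scale (adjusted p = 0.00828) and the mitochondrial citrate carrier SLC25A1 by 0.67 ± 0.13 (adjusted p = 0.00153). ELOVL5 (−0.55) and ELOVL1 (−0.63) were the other members called, while the synthase FASN (−0.46, adjusted p = 0.0592), ACACA (−0.54) and SCD (−0.46) missed the threshold. The count was 9 with the replicate block, 3 without replicate 3 at 12 h and 2 without replicate 3 at 120 h.

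Genes of fat storage gave few calls, where 3.51% of all genes were called higher and 4.07% lower. In the list of lipid droplet and triglyceride storage 1 of 11 was called, MGLL, the monoglyceride lipase, which fell from 8.59, 8.14 and 8.46 to 6.71, 6.71 and 5.88 (−1.96 ± 0.46, adjusted p = 0.0061). The droplet coat protein PLIN2 read 11.81, 11.03 and 11.75 at 12 h and 10.90, 10.04 and 11.72 at 120 h, and its difference of −0.65 ± 0.29 did not pass the test (adjusted p = 0.196). The groups overlapped, and all 6 values lay above the range of 8.87 to 9.59 in lean control at both hours. In the adipocyte identity list 1 of 14 was called higher and 1 lower, with a median of −0.46. KLF15, a transcription factor of fat and glucose metabolism, rose from 7.51, 7.33 and 7.14 to 9.85, 8.59 and 10.08 (2.17 ± 0.55, adjusted p = 0.0126), and CD36 was the member called lower. The fatty acid carrier FABP4 read 10.75, 11.10 and 11.69 at 12 h and 8.01, 9.01 and 9.69 at 120 h without overlap (−2.28 ± 0.74, adjusted p = 0.0563, and 0.00521 with the replicate block). With the block 3 members of the list were called lower, where it called 734 of all 10176 genes lower. PPARG, the master regulator of fat cells, differed by −0.21 ± 0.25 (adjusted p = 0.723).

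Of 18 genes of fatty acid uptake and binding 2 were called lower, CD36 and GOT2, the mitochondrial aspartate aminotransferase also found at the cell surface (−0.49), and 4 lower and 1 higher with the replicate block. Of 19 genes of fatty acid oxidation and PPAR targets 1 was called higher and 1 lower, with a median of −0.10. The shares over all genes were 3.51% higher and 4.07% lower. HADHB, the thiolase subunit of the trifunctional protein, fell by 0.42 on the log2 scale, and the thioesterase ACOT9 rose by 0.60, while a second probe set of lower level had a difference of −0.17. Blocking on replicate gave 3 higher and 2 lower calls, where it called 649 of all 10176 genes higher and 734 lower. Of 10 genes of cholesterol efflux and the oxysterol response, APOA1 was the member called lower. CH25H, which makes 25-hydroxycholesterol, an inhibitor of SREBP processing, was the member called higher, from 7.13, 7.11 and 6.67 to 8.50, 8.34 and 8.06 (1.33 ± 0.39, adjusted p = 0.0321). The 2 hours did not overlap in CH25H, and its means at 24 h and 72 h were 6.96 and 7.26. The replicate block gave 2 higher and 3 lower calls in this list. No member of it was called higher without replicate 1, 2 or 3 at 12 h, or without replicate 1 or 3 at 120 h. CH25H differed by 0.99 in lean control and by 0.95 in fat oleate, neither of them called.

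The change in oleate was next set against that in control by a test of the difference itself. The change in lean oleate minus the change in lean control was called for 33 of 22060 probe sets (0.15%), 25 positive (0.113%) and 8 negative (0.0363%), and for 16 of 10176 genes (0.157%), 12 positive (0.118%) and 4 negative (0.0393%). The 4 negative genes were NSDHL (−1.91 ± 0.42, adjusted p = 0.037), INSIG1 (−1.51 ± 0.32, adjusted p = 0.0185), FADS2 (−1.49 ± 0.31, adjusted p = 0.0165) and ACAT2 (−0.82 ± 0.17, adjusted p = 0.0174). All 4 were called lower in oleate and none was called in control. NSDHL read 9.57, 9.74 and 9.68 in control at 12 h and 9.98, 9.59 and 10.11 at 120 h, and FADS2 9.02, 8.87 and 8.98, then 9.51, 9.56 and 9.61. For ACAT2 the difference was −0.21 (adjusted p = 0.984) when the gene's probe sets were averaged. Over the cholesterol list this difference was below 0 in 20 of 20 genes with a median of −1.35 and 3 calls, against a median of 0.18 with no call in lean control itself. In MVD it was −2.21 ± 0.54 (adjusted p = 0.0678).

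The 12 positive genes were all called lower in lean control, and 1 of them was called higher in oleate. The 5 largest were ARFGEF1, an exchange factor for Golgi Arf proteins (1.41), CCDC88A, the actin-binding girdin (1.33), the exporter ABCC4 (1.19), the lysophospholipid acyltransferase LPGAT1 (1.15) and AKAP13, an anchor for protein kinase A (1.13). CCDC88A read 8.64, 8.47 and 8.60 at 12 h in oleate and 8.95, 8.87 and 8.83 at 120 h, and in control 7.47, 7.65 and 7.64, then 6.49, 6.59 and 6.64. Its levels in control were thus below those in oleate at both hours, its probe sets in oleate ran from −0.08 to 0.59, and the difference was 0.19 (adjusted p = 0.984) when they were averaged. AKAP13, the gene called in oleate, read 8.74, 9.01 and 8.64 at 12 h and 9.07, 9.42 and 9.67 at 120 h (0.59 ± 0.16, adjusted p = 0.0226). Its other probe sets, with differences of 0.25 to 0.49 in oleate, did not pass. The count of 33 was 84 with the replicate block, 8 without lean control 12 h replicate 3, 18 without lean oleate 12 h replicate 1, 18 without lean oleate 12 h replicate 3, 10 without lean oleate 120 h replicate 3 and 75 without lean oleate 120 h replicate 2.

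**Figure D3:**
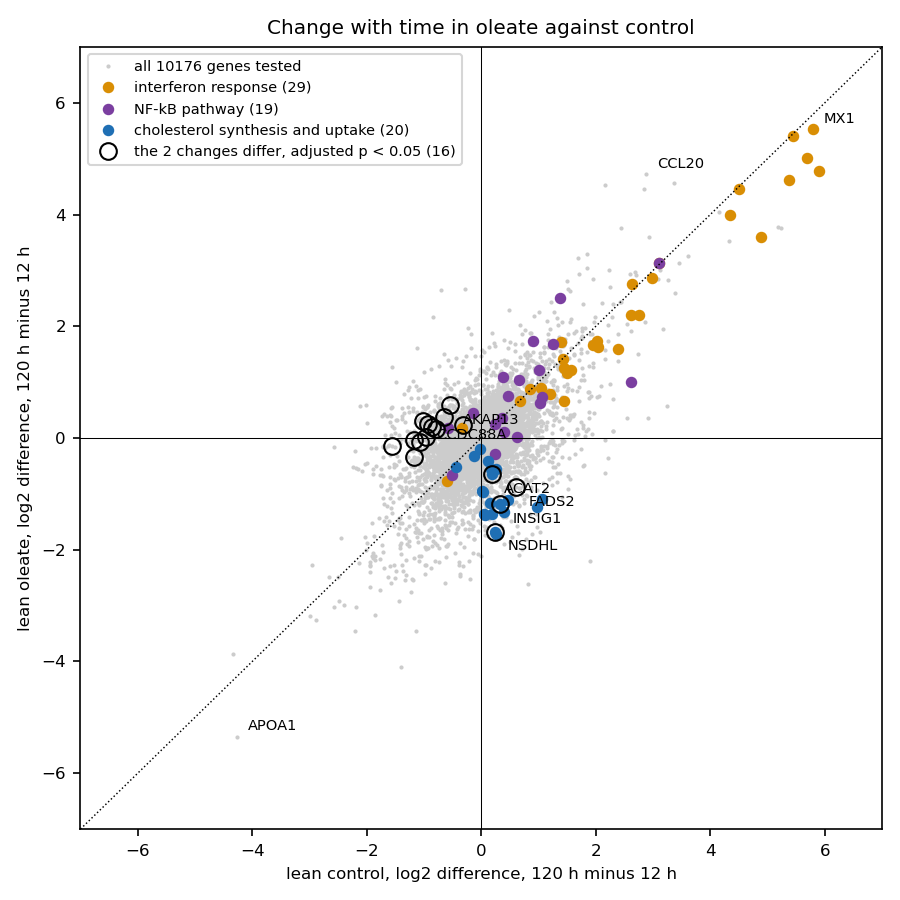
Log2 difference between 120 h and 12 h in lean oleate (y axis) against lean control (x axis) for the 10176 genes tested, with 3 gene lists in colour, the line of equal change dotted, and rings around the 16 genes whose 2 changes differ at an adjusted p under 0.05. Interferon genes lie mostly near the dotted line at the upper right, and cholesterol genes lie below 0 in oleate and mostly slightly above 0 in control.

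**Figure D4:**
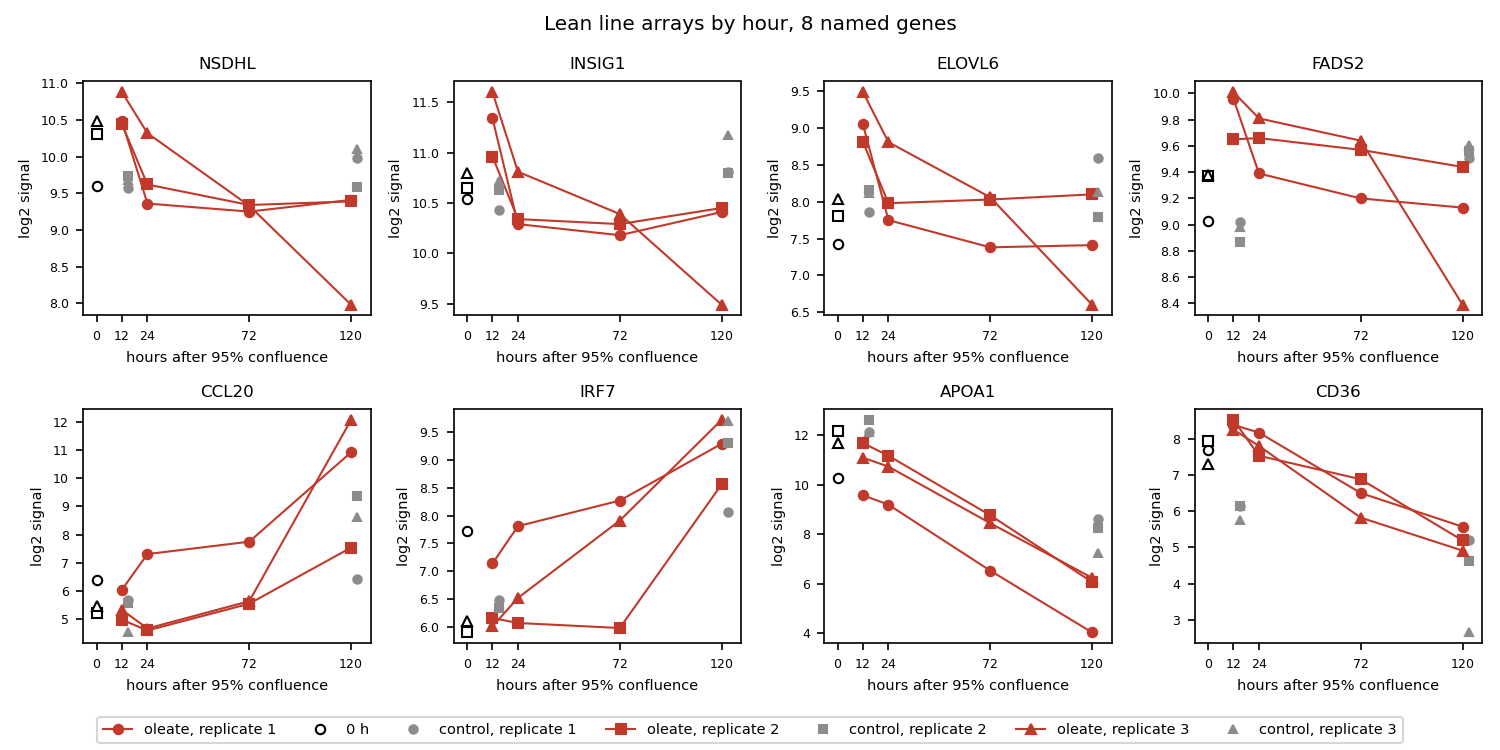
Log2 signal (y axis) of 8 named genes on each lean line array against hours after 95% confluence, with red lines joining oleate arrays of one replicate number, open symbols at 0 h, and grey symbols, set slightly to the right, for control arrays at 12 h and 120 h. Among the oleate arrays NSDHL, INSIG1, ELOVL6 and FADS2 are on average highest at 12 h, CCL20 and IRF7 are highest at 120 h, and APOA1 and CD36 are lowest at 120 h.

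Interferon response genes had large and uneven differences. Of the 29 tested, 28 differences lay above 0 with a median of 1.72 and a range of −0.77 to 5.53, 25 had every array at 120 h above every array at 12 h (23.4% of all probe sets did not overlap, in either direction), and 5 were called higher, against 3.51% of all genes. IRF7, the transcription factor that amplifies type I interferon, read 7.14, 6.16 and 6.01 at 12 h and 9.29, 8.56 and 9.72 at 120 h (2.75 ± 0.85, adjusted p = 0.0408). SOCS1, an inhibitor of cytokine signalling, rose from 7.46, 7.22 and 6.84 to 8.79, 8.66 and 9.08 (1.67 ± 0.45, adjusted p = 0.0186). SAMD9L, BATF3 (1.72 ± 0.51, adjusted p = 0.0352) and B2M, the light chain of class I molecules (0.89, adjusted p = 0.0429), were the other members called. The antiviral effectors MX1 (5.53), IFI6 (5.41) and RSAD2 (5.02) had the largest differences of the list, and these did not pass the test (adjusted p = 0.133, 0.116 and 0.0808); they are named for their size, after their values were seen.

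Arrays of different replicate number differed in the hour from which the interferon list read higher. The labels do not tell whether arrays of one number follow the same culture. Its mean level was 7.28, 5.63 and 6.08 at 0 h, 7.07, 5.49 and 6.04 at 12 h, 7.63, 5.45 and 6.27 at 24 h, 7.95, 5.51 and 7.54 at 72 h, and 8.61, 8.15 and 8.80 at 120 h. Replicate 1 was the highest array at every hour up to 72 h, and the replicate 2 arrays read 5.45 to 5.63 up to 72 h. With the replicate block 23 of the 29 were called higher, whereas none was called without replicate 2 at 12 h, without replicate 3 at 12 h or without replicate 3 at 120 h, and 1 without replicate 1 at 120 h. In lean control, where 3.82% of all genes were called higher and 3.31% lower, 11 of the 29 were called higher with a median of 2.04, and in fat oleate none with a median of 1.06. No member was called in either test of a difference.

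Of 19 NF-kB pathway genes tested, 6 were called higher (3.51% of all genes were) and none lower, with a median of 0.74. The list's largest difference, 3.14, did not pass. NFKBIA, which holds NF-kB in the cytoplasm, read 9.66, 9.54 and 9.30 at 12 h and 11.04, 10.46 and 12.02 at 120 h (1.68 ± 0.37, adjusted p = 0.00379). TNFAIP3, the deubiquitinase A20, read 7.38, 6.97 and 6.57 at 12 h and 9.36, 8.45 and 10.62 at 120 h (2.51 ± 0.60, adjusted p = 0.0069). The subunits REL (1.22 ± 0.28, adjusted p = 0.00574) and NFKB1 (0.75 ± 0.18, adjusted p = 0.00607) rose too, and NFKBIE (1.03) and NFKBIZ (1.75) complete the called members. In the 4 genes just tested replicate 2 was the lowest and replicate 3 the highest array at 120 h. The count was 3 without replicate 3 at 12 h, 0 without replicate 3 at 120 h and 9 with the replicate block, where 1 was also lower. In lean control 4 members were called higher with a median of 0.63, and in fat oleate none with a median of 0.38. Over all genes 3.82% and 1.59% were called higher there. No NF-kB member was called in the test of the difference from lean control or from fat oleate.

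Among 24 secreted inflammatory and acute phase genes 7 were called higher and 1 lower, against 3.51% and 4.07% of all genes, with a median of 0.07. Besides CCL20, IL8L1 and IL1B, IL6 rose from 11.14, 10.54 and 9.88 to 12.92, 12.17 and 13.24 (2.26 ± 0.51, adjusted p = 0.00498), although 1 probe set of lower level had a difference of −0.06. TNFSF15, a cytokine of the tumour necrosis factor family, rose by 1.85 and was called on a second probe set (2.43), with another of lower level at −0.20. The prostaglandin synthase PTGS2 (1.00) and the chemokine CCL4 (0.36) were called as well. HPGDS, the haematopoietic prostaglandin D synthase, was the member called lower (−0.59 ± 0.13, adjusted p = 0.00354). The higher count was 3 without replicate 2 at 12 h, 3 without replicate 3 at 12 h and 0 without replicate 3 at 120 h, and with the replicate block 10 were higher and 3 lower. In lean control CCL20, IL8L1, IL1B and IL6 differed by 2.89, 3.36, 2.44 and 1.00, none of them called (adjusted p = 0.0693, 0.0556, 0.144 and 0.239). The members called in lean control were IL8L2, higher, and HPGDS, lower, where 3.82% and 3.31% of all genes were. In fat oleate CCL20 was called (3.38, adjusted p = 0.0488), where 1.59% of all genes were called higher. No member was called in the test of the difference from lean control or from fat oleate.

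The transcripts of immediate early genes follow stress and growth signals within minutes. Of the 18 tested, 8 were called higher and 1 lower, against 3.51% and 4.07% of all genes, with a median of 0.81. IER3 read 5.06, 4.97 and 5.00 at 12 h and 7.52, 6.10 and 8.62 at 120 h (2.40 ± 0.50, adjusted p = 0.00241), and the phosphatase DUSP1 9.45, 9.23 and 9.20, then 10.67, 9.97 and 12.86 (1.88 ± 0.49, adjusted p = 0.0154). The 12 h arrays lay within a narrow range in both genes and the 120 h arrays were spread widely, with replicate 3 highest. The transcription factors ATF3 (1.63 ± 0.32, adjusted p = 0.00132) and MAFF (1.00 ± 0.18, adjusted p = 0.000841) rose too, and JUN (0.83), DUSP4 (0.82), MYC (0.79) and KLF6 (0.65) complete the calls. EGR4 was called lower (−2.10). The higher count was 1 without replicate 3 at 120 h, 3 without replicate 2 at 12 h, 3 without replicate 3 at 12 h and 11 with the replicate block.

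**Figure D5:**
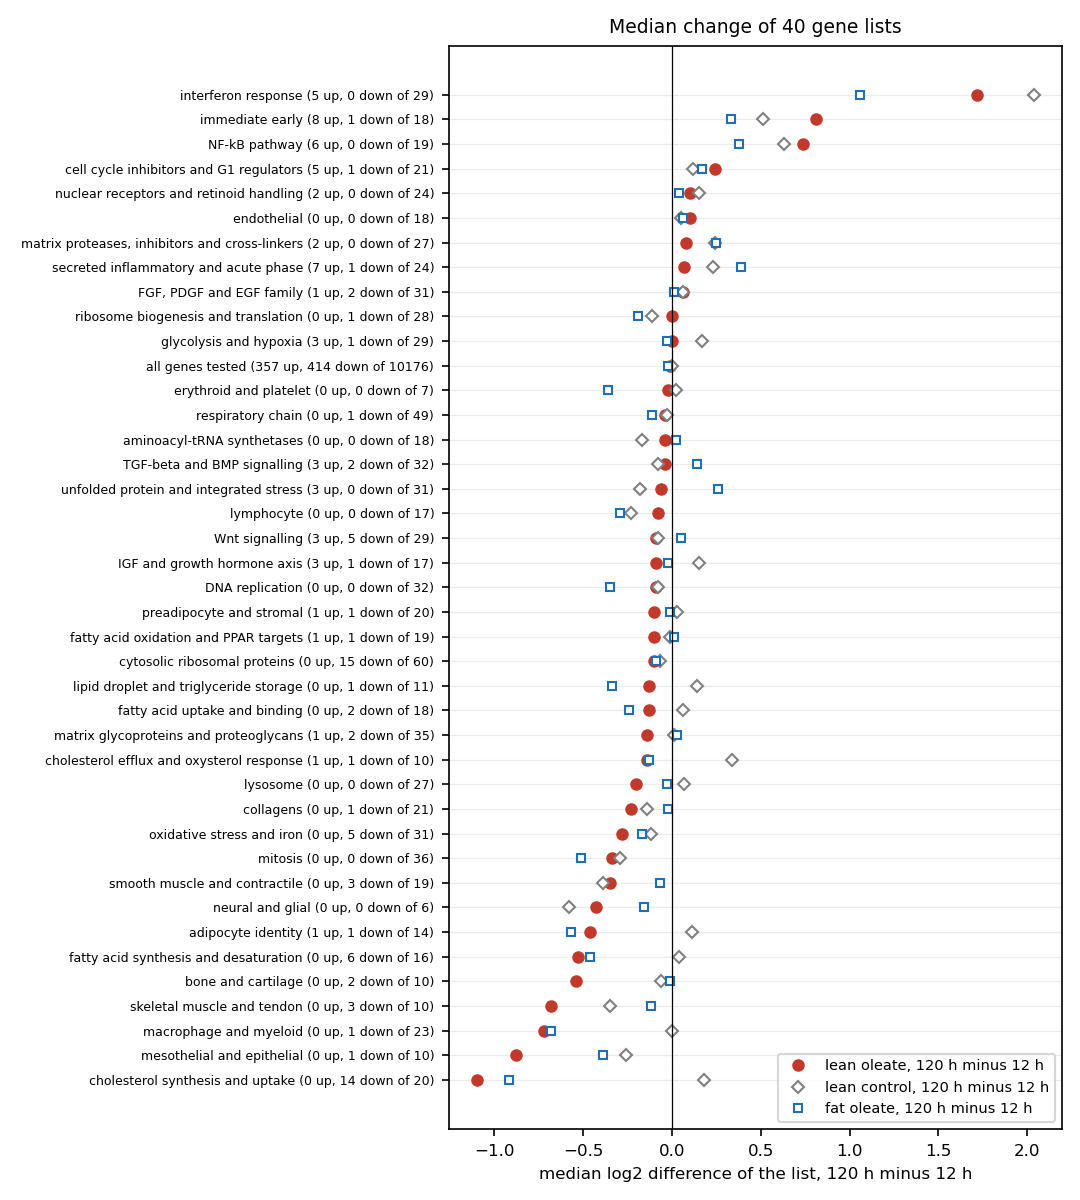
Median log2 difference between 120 h and 12 h (x axis) of 40 gene lists and of all genes tested, one row per list ordered by lean oleate, with filled circles for lean oleate, open diamonds for lean control and open squares for fat oleate, and beside each name the members called higher and lower in lean oleate. The cholesterol list is at −1.10 in lean oleate, −0.92 in fat oleate and 0.18 in lean control, and the interferon list is at 1.72, 1.06 and 2.04.

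Genes of the insulin-like growth factor axis were called among ligands, binding proteins and proteases. Of the 17 genes tested, 3 were called higher and 1 lower, against 3.51% and 4.07% of all genes. The ligand IGF1 rose from 3.29, 3.21 and 3.36, under the array median, to 6.16, 5.66 and 5.27 (2.41 ± 0.60, adjusted p = 0.00897), and its means at 24 h and 72 h were 4.24 and 5.58. PAPPA, described above, rose with it. Among the binding proteins IGFBP2 fell from 6.65, 8.84 and 8.98 to 3.90, 6.07 and 5.42 (−3.02 ± 0.83, adjusted p = 0.0213), and IGFBP5 rose from the floor on all 3 arrays at 12 h to 5.82, 3.31 and 4.13 (adjusted p = 0.018). IGF1 was called higher in lean control (2.11, adjusted p = 0.0231) and in fat oleate (2.71, adjusted p = 0.00674) too. Of the 4 calls 1 was left without replicate 1 at 120 h, and 2 without replicate 2 at 12 h, replicate 3 at 12 h or replicate 3 at 120 h.

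In the TGF-beta and BMP list 3 of 32 were called higher and 2 lower, with a median of −0.04. Over all genes 3.51% were called higher and 4.07% lower. The activin subunits INHBA (1.00 ± 0.24, adjusted p = 0.00646) and INHBB (2.03 ± 0.51, adjusted p = 0.0102) and the ligand TGFB2 (1.05 ± 0.27, adjusted p = 0.0116) rose. INHBA read 11.89, 11.50 and 11.23 at 12 h and 12.64, 12.04 and 12.94 at 120 h. The BMP target ID2 fell by 2.33 on its representative probe set and was called on another (−2.16), while 2 further probe sets of lower level (−1.26 and 0.11) did not pass. The decoy receptor BAMBI was called lower (−1.23). The 5 calls were 10 with the replicate block, 5 in each direction, where the block called 649 of all 10176 genes higher and 734 lower. They were 2 without replicate 2 at 12 h, 2 without replicate 3 at 12 h, and 2 without replicate 3 at 120 h, in which last case both were lower. In the Wnt list 3 of 29 were called higher and 5 lower, with a median of −0.09. The ligand WNT5A fell from 5.92, 7.13 and 7.37 to 3.81, 5.46 and 4.34 (−2.27 ± 0.42, adjusted p = 0.000849), and the receptor FZD1 from 12.16, 12.54 and 12.48 to 11.41, 11.90 and 11.54 (−0.77 ± 0.18, adjusted p = 0.00615). AXIN2, a feedback target of the pathway, rose from 6.99, 6.62 and 6.79 to 8.39, 7.32 and 7.83 (1.05 ± 0.28, adjusted p = 0.0153), and the ligand WNT6 by 1.62. WNT2B (−2.22), FZD4 (−0.997) and LGR4 (−0.78) were also called lower and FZD6 (0.55) higher. Of the 8 calls 2 were left without replicate 2 or replicate 3 at 12 h, and 3 without replicate 1 at 120 h.

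Calls in the remaining signalling lists were few. Of 31 genes of the FGF, PDGF and EGF families, with 1 called higher and 2 lower against 3.51% and 4.07% of all genes, FGFR2 (−1.10 ± 0.23, adjusted p = 0.00203) and the decoy receptor FGFRL1 (−1.10 ± 0.26, adjusted p = 0.0063) were called lower and FGFR1 higher (0.41 ± 0.13, adjusted p = 0.0435). FGFR2 read 8.43, 8.55 and 8.77 at 12 h and 7.55, 7.78 and 7.13 at 120 h. The list had 3 calls each way with the replicate block, which called 649 of all 10176 genes higher and 734 lower. It had 1 call without replicate 3 at 12 h or replicate 1 at 120 h, and 4 higher and 3 lower without replicate 2 at 120 h. Among 24 nuclear receptors and genes of retinoid handling 2 were called higher and none lower. NR1D2, the clock repressor REV-ERB beta, rose from 7.76, 7.74 and 7.83 to 8.81, 8.15 and 9.91 (1.18 ± 0.22, adjusted p = 0.000955), and the orphan receptor NR2F2 rose by 0.71; the replicate block gave 4 higher and 2 lower. In NR1D2 the 12 h arrays lay within a narrow range and replicate 3 was again the highest at 120 h.

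Matrix genes gave scattered calls, to be set against 3.51% called higher and 4.07% called lower over all genes. Of 21 collagens COL4A1, a basement membrane chain, was called lower, from 9.02, 9.51 and 9.17 to 7.12, 8.48 and 6.36 (−1.91 ± 0.58, adjusted p = 0.0389). Of 35 matrix glycoproteins and proteoglycans, the basement membrane proteins NID1 (−2.06 ± 0.47, adjusted p = 0.0051) and LAMC1 (−0.62 ± 0.18, adjusted p = 0.0344) were called lower and the microfibril protein FBN2 higher (0.94 ± 0.27, adjusted p = 0.0294). Of 27 matrix proteases, inhibitors and cross-linkers the inhibitors SERPINE2 (0.46) and TIMP2 (0.51) were called higher and none was lower. The medians of the 3 lists were −0.23, −0.14 and 0.08. No collagen was called without replicate 1, 2 or 3 at 12 h, or without replicate 1 or 3 at 120 h. Without replicate 2 at 120 h 4 collagens were called lower. With the replicate block 3 collagens were called lower, 3 matrix glycoprotein genes higher and 6 lower, and 4 protease and inhibitor genes higher. Over all 10176 genes the block called 649 higher and 734 lower.

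The contractile genes called were all lower, where 4.07% of all genes were called lower and 3.51% higher. Of 19 smooth muscle and contractile genes 3 were called, all lower, with a median of −0.35. The smooth muscle myosin MYH11 read 6.20, 6.43 and 7.16 at 12 h and 4.09, 4.37 and 3.17 at 120 h (−2.72 ± 0.53, adjusted p = 0.00125), and VCL (−0.37) and MYH10 (−0.91) were the others. Of 10 skeletal muscle and tendon genes ACTA1, ACTC1 and MUSTN1 were called lower. ACTA1, the skeletal actin, read 12.21, 12.43 and 11.70 at 12 h and 10.07, 11.35 and 8.81 at 120 h (−2.04 ± 0.54, adjusted p = 0.0164), while MYOD1 and MYOG, which define muscle cells, lay below the array median on all 6 arrays. ACTA1 was called lower in lean control as well (−1.72, adjusted p = 0.0425). Without replicate 2 at 12 h or without replicate 3 at 120 h the skeletal list had no call and the smooth muscle list 1, and with the replicate block the skeletal list had 4 lower and 1 higher.

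Among 21 cell cycle inhibitors and G1 regulators 5 were called higher and 1 lower, against 3.51% and 4.07% of all genes, with a median of 0.24. BTG2, an antiproliferative factor, rose from 9.64, 9.61 and 9.15 to 10.40, 10.02 and 11.07 (1.03 ± 0.25, adjusted p = 0.00807), its relative BTG1 by 0.30 ± 0.06 (adjusted p = 0.00181), and the kinase inhibitor CDKN1A by 1.15. The cyclin CCND1 (0.56) and MYC (0.79), which promote growth, rose too, and MYCN fell from 10.23, 10.01 and 10.40 to 9.24, 8.23 and 9.13 (−1.35 ± 0.26, adjusted p = 0.00111). The higher count was 2 without replicate 2 at 12 h, 1 without replicate 3 at 12 h, 3 without replicate 1 at 120 h and 0 without replicate 3 at 120 h. None of 36 mitosis genes or of 32 DNA replication genes passed the limma test. At an unadjusted p under 0.05 were 1 and 4 of them, against 2383 of all 10176 genes. In these lists 35 and 23 genes lay below 0, as did 5277 of all genes, with medians of −0.34 and −0.09. SMC4, a condensin subunit, read 10.88, 11.33 and 11.15 at 12 h and 10.38, 11.12 and 9.73 at 120 h (−0.71, adjusted p = 0.0964), HMMR differed by −0.64, RRM1 by −0.66 and RFC2 by −0.51. SMC4 was the 1 mitosis gene called lower with the replicate block (adjusted p = 0.0393).

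Of 60 cytosolic ribosomal protein genes tested, 15 were called lower and none higher, against 4.07% and 3.51% of all genes. The called falls were 0.15 to 0.51, and the median over the list was −0.10. RPL30 read 12.97, 13.01 and 13.04 at 12 h and 12.84, 12.90 and 12.68 at 120 h (−0.20 ± 0.05, adjusted p = 0.00747), and RPS24 (−0.22), RPL14 (−0.23) and RPL24 (−0.15) were next by p. RPL24 had differences of −0.23 to 0.60 on its other probe sets, the positive ones all of lower level, and its difference was 0.09 when they were averaged. No ribosomal protein was called without replicate 3 at 12 h or without replicate 3 at 120 h, and 6 were without replicate 2 at 12 h. In ribosome biogenesis and translation 1 of 28 was called, the elongation factor EEF1B2 (−0.21), with a median of 0. None of the 18 aminoacyl-tRNA synthetases passed, with a median of −0.04. At an unadjusted p under 0.05 were 5 of them, against 2383 of all 10176 genes. YARS differed by 0.44 and LARS by −0.30. In the respiratory chain 1 of 49 was called, NDUFB1 (−0.39), with a median of −0.04. With the replicate block 3 genes of ribosome biogenesis and translation were called lower, 1 synthetase higher, and 4 respiratory chain genes lower and 1 higher. Over all 10176 genes the block called 649 higher and 734 lower.

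In the oxidative stress and iron list 5 of 31 were called lower and none higher, against 4.07% and 3.51% of all genes. The median was −0.28, and metallothioneins were among the called genes. MT3 read 11.93, 10.97 and 12.12 at 12 h and 10.30, 9.69 and 10.35 at 120 h (−1.56 ± 0.37, adjusted p = 0.00736), and MT4 12.29, 11.65 and 12.39, then 10.81, 10.31 and 11.19 (−1.34 ± 0.40, adjusted p = 0.0358). Both bind zinc and copper, and their means were 8.49 and 9.54 at 0 h and 10.35 and 10.90 at 24 h, so the 12 h arrays stood above both neighbouring hours. Catalase (CAT) fell by 0.66 ± 0.17 (adjusted p = 0.0107), and MGST2 (−1.42) and GCLM (−0.37) were the other calls. The count was 10 with the replicate block, 2 without replicate 1 at 12 h, 3 without replicate 2 at 12 h, 0 without replicate 3 at 12 h and 1 without replicate 3 at 120 h.

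In the list of the unfolded protein and integrated stress response 3 of 31 were called higher and none lower. The shares over all genes were 3.51% and 4.07%. ATF4, the transcription factor of the integrated stress response, rose from 12.22, 12.24 and 12.16 to 12.57, 12.46 and 12.74 (0.38 ± 0.07, adjusted p = 0.000824). The chaperone DNAJB9 rose by 0.72, though its other probe sets (0.22 and 0.37) did not pass. ATF3 is given above, and the list's median was −0.06. ATF4 differed by 0.11 in lean control and −0.05 in fat oleate, neither called. The tests of the difference from lean control and from fat oleate called no member of the list. Of the 3 calls 1 was left without replicate 3 at 120 h. Of 29 glycolysis and hypoxia genes 3 were called higher and 1 lower, with a median of 0. VEGFA, the angiogenic factor, rose from 10.72, 10.52 and 10.43 to 11.61, 11.26 and 11.98 (1.06 ± 0.32, adjusted p = 0.035), HIF1A by 0.52 and KDM3A by 0.33, and EGLN1, the oxygen sensor that marks HIF1A for decay, fell by 0.38. None of the 3 higher calls was left without replicate 1, 2 or 3 at 12 h or without replicate 3 at 120 h, and 1 without replicate 1 at 120 h; the replicate block gave 5.

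Calls in lists of other cell types are to be set against 3.51% called higher and 4.07% called lower over all genes. In the preadipocyte and stromal list 1 of 20 was called higher and 1 lower. The hyaluronan receptor CD44 rose by 0.90, while its other probe sets (0.38 to 0.68) did not pass. TCF21, a transcription factor of mesenchymal progenitors, fell from 6.93, 7.95 and 7.97 to 4.74, 6.27 and 6.10 (−1.92 ± 0.56, adjusted p = 0.0319). Of 10 mesothelial and epithelial genes KRT7 was called lower (−2.46 ± 0.73, adjusted p = 0.0337), from 11.15, 11.66 and 12.21 to 8.54, 10.33 and 8.79, with a list median of −0.88. Of 10 bone and cartilage genes DLX5 (−1.79 ± 0.34, adjusted p = 0.00111) and CHRDL1 (−1.75 ± 0.53, adjusted p = 0.0373) were called lower, with a median of −0.54. These 3 lists had, with the replicate block, 2 higher and 3 lower, 2 lower, and 1 higher and 2 lower calls, respectively. Without replicate 2 or 3 at 12 h, or replicate 1 or 3 at 120 h, the bone and cartilage list had 1 call. The stromal and the mesothelial and epithelial lists had no call in those fits. None passed the limma test among 18 endothelial (median 0.10), 17 lymphocyte (−0.08), 7 erythroid and platelet (−0.02), 6 neural and glial (−0.43) and 27 lysosome genes (−0.20). At an unadjusted p under 0.05 were 4, 3, 1, 0 and 6 of them, respectively, against 2383 of all 10176 genes. The replicate block called 649 of all 10176 genes higher and 734 lower. With it 2 endothelial genes were called higher, 1 lymphocyte gene higher and 1 lower, and 4 lysosome genes lower. These included SOX17 (adjusted p = 0.0152), FLI1 (0.0134), CD3E (0.0168), SYK (0.0423), MCOLN1 (0.0403) and LIPA (0.0275). The members of smallest p in those lists were SOX17 (2.85) and FLI1 (0.81), CD3E (1.92) and SYK (−1.53), HBE (1.20) and HBA1 (−0.97), SOX10 (−0.99) and GFAP (0.55), and MCOLN1 (−0.50) and LIPA (−0.60), respectively.

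The lean oleate arrays at 24 h and 72 h, which the comparison did not use, gave no probe set called between them (0 of 22060, limma), and 892 (4.04%) were at an unadjusted p under 0.05 and 13 were called with the replicate block. Their differences nevertheless had the sign of the 12 h to 120 h change for 529 of the 589 higher probe sets (89.8%) and 639 of the 708 lower (90.3%), against 51.2% and 48.7% of all tested. The median size was small, 0.20 and −0.24. The cholesterol list had 19 of 20 genes below 0 in this interval, with a median of −0.30.

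Most of the called change had the same sign in lean control and in the fat line, and a smaller part was also called there. Lean control gave 1497 called probe sets (6.79%). Of those called in lean oleate, 559 of the 589 higher (94.9%) and 633 of the 708 lower (89.4%) had the same sign there. Over all tested probe sets 50.4% and 49.5% had those signs. Called there in the same direction were 198 (33.6%) and 191 (27%), where 795 of all 22060 probe sets were called higher and 702 lower. The count of 1497 was 889 without lean control 12 h replicate 2, 540 without lean control 12 h replicate 3, 622 without lean control 120 h replicate 2 and 579 without lean control 120 h replicate 3. Fat oleate gave 692 (3.14%), among arrays on which 5 of the 36 poly-A spike-in probe sets were also called higher. There 547 of the 589 (92.9%) and 670 of the 708 (94.6%) had the same sign, against 48.6% and 51.3% of all tested. Called in the same direction were 85 (14.4%) and 148 (20.9%), where 376 of all 22060 probe sets were called higher and 316 lower. The fat count was 77 without fat oleate 12 h replicate 1, 20 without fat oleate 12 h replicate 2, 330 without fat oleate 120 h replicate 3 and 1881 without fat oleate 12 h replicate 3.

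Of the 14 cholesterol genes called lower in lean oleate 10 were called lower in fat oleate as well, 71.4% of the lean calls and 90.9% of the 11 fat calls, where 1.66% of all genes were called lower and 1.59% higher, and the fat median was −0.92. ELOVL6 fell by 1.76 and ACLY by 1.22 in fat oleate, close to their values of −1.75 and −1.21 in the lean line. The change in lean oleate minus that in fat oleate was called for 0 probe sets (limma), with 1461 (6.62%) at an unadjusted p under 0.05, and for 130 without fat oleate 12 h replicate 3. A miss of the threshold does not show that the 2 lines changed alike.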

How the data were processed

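The deposited values gave one reading for each of 38535 probe sets on 66 arrays. MAS5 is named, with no role or version, in the submitters' processing notes; other steps are not given in the sources used here. The deposited values, −5.232 to 13.51 with a median of 4.17, were taken as log2 signals, a base inferred from the values themselves. Sorted values of any 2 arrays differed by at most 0.0615, so the arrays share a distribution. No read depth applies, and the number of arrays limits the precision.

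Values were floored at 1.613 (20th percentile). The 22060 probe sets above the array median on all 3 arrays of some group were tested, after setting 96 control probe sets apart. The platform annotation named 1 gene for 27178 probe sets, several for 177 and none for 11180; for each of 10176 genes the tested probe set of highest mean stood for the gene. limma 3.58.1 (R 4.3.3, data.table version 1.17.8, statmod 1.5.0) fitted 22 group means on 66 arrays with 44 residual degrees of freedom, trended robust variances, and Benjamini-Hochberg adjustment over 22060 probe sets. Calls had an adjusted p under 0.05, SE is the fit's standard error, and the fit was tested on simulated data.

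Named genes were the 12 largest called rises and falls without overlap, the 5 largest called differences each way from lean control (4 negative exist) and from fat oleate (none), up to 4 called members of each of 40 lists by smallest p (2 uncalled where none was), and PLIN2, PPARG, FABP4 and MVD; symbols of unnamed loci were passed over. Genes, lists and comparisons were chosen with earlier results of these data known. Replicate numbers were taken to pair the lean oleate arrays because deviations from group means correlated for equal numbers, at 0.182, 0.193 and 0.169 between 12 h and 120 h and at 0.268, 0.218 and 0.207 between 24 h and 72 h; in lean control (0.071, 0.116, 0.112) and fat oleate (0.169, 0.05, 0.092) not all exceeded 0.1. The alternatives were other floors, filters, normalizations, variance models, array sets, blocks and probe set rules, and each array left out.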

Additional observations from a re-analysis of the deposited data

Results flagged for a closer look

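The change from 12 h to 120 h differed between lean oleate and lean control, by a test of the difference itself, for 33 probe sets. Among named genes the difference was positive in ARFGEF1 (1.41), CCDC88A (1.33), ABCC4 (1.19), LPGAT1 (1.15) and AKAP13 (1.13) and negative in NSDHL (−1.91), INSIG1 (−1.51), FADS2 (−1.49) and ACAT2 (−0.82). Over 23 alternative settings each, CCDC88A kept the call in 22, ABCC4 in 19, LPGAT1 and FADS2 in 18, ACAT2 in 17, AKAP13 in 16, INSIG1 in 15, NSDHL in 12 and ARFGEF1 in 11. The difference between lean and fat oleate gave no call.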

How the results depend on the processing

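The replicate block pairs arrays of one number within each line and treatment, lean control and fat oleate included. With it 2365 probe sets (1383 genes) were called in lean oleate, 13 between 24 h and 72 h, 2407 in lean control, 1474 in fat oleate and 84 in the difference from control. A random replicate block (correlation 0.192) gave 2466 (1416 genes), 2, 2724, 1565 and 108. Array weights gave 5599 (2950 genes), 20, 3757, 2795, 704 and, for the difference from fat oleate, 1172. Fits of only the arrays compared gave 305 (189 genes) in lean oleate, 217 in lean control, 0 in fat oleate and 2 in the difference from control. With no filter fat oleate gave 457, and 72 h minus 24 h and the difference from fat oleate 1 each. The 12 lean oleate arrays alone with the replicate block, chosen after seeing the data, gave 2313 (1332 genes) and 7. In lean oleate 459 passed an adjusted p of 0.01 and 548 were also at least 2-fold. No other alternative moved a count by over 1.5 times. Leaving out one array in turn gave 364 to 1932 probe sets (218 to 1132 genes) in lean oleate, 0 to 1 between 24 h and 72 h, 540 to 1956 in lean control, 20 to 1881 in fat oleate, 8 to 75 in the difference from control and 0 to 130 in that from fat oleate. Of the 107 genes called in lean oleate that the naming rule picked, 15 kept the call in every alternative and 92 lost it in some. The block lost none. RPL24 reversed (0.09) when probe sets were averaged. The uncalled ARFGEF1 (−0.35 to 0.01 as arrays were left out) and LPGAT1 (−0.21 to 0.09) reversed without lean oleate 12 h replicate 1 (0.01 in both), and LPGAT1 also without 12 h replicate 3 (0), without 120 h replicate 1 (0.03) and without 120 h replicate 2 (0.09). The causes were not tested.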
